A study of Mus musculus with 6 samples.

Results

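The genes described here encode the autophagy machinery, the proteins that start, build and load the autophagosome. They are 42 of the 20036 genes in the deposited table, chosen by name from textbook knowledge of the pathway and found in the table's name column, and all 42 were present once. In autophagy, a membrane sac closes around cytoplasm, damaged organelles or microbes and fuses with the lysosome, where the load is digested. An initiation kinase complex and a lipid kinase complex mark the site, lipid transfer proteins supply membrane, and a conjugation system attaches the small ATG8 proteins (the LC3 and GABARAP families) to it. Cargo receptors then tie the load to the ATG8 proteins. In macrophages the pathway is known for clearing bacteria and damaged mitochondria and for restraining inflammasome activity.

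RNA was sequenced from macrophages made from THP-1, a human leukaemia line of monocytic origin, in 3 melittin and 3 control libraries. All wells are described as treated with PMA, a phorbol ester that turns these cells into adherent macrophage-like cells, at 100 ng/ml for 48 h. The melittin group shared a Transwell with tumour cells and was exposed to melittin, a peptide of bee venom that lyses membranes, at 3 µg/ml for 48 h. What the control group (labelled NC) received, and whether tumour cells stood above it, is not given, so melittin and co-culture cannot be told apart. The organism is labelled as mouse, but all 20036 identifiers are human, and the values are read as human expression. The labels do not tell whether the libraries of a group stem from separate cultures. Each p-value therefore reflects only how these libraries vary, and that variation may be technical.

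Library totals ran from 16192032 to 19521897 counts with melittin and from 16001423 to 19597781 counts in controls. Of 12 markers of macrophages and monocytes, 11 were tested, 5 rose and 4 fell, and the summed level of the 12 was 2528 to 2554 CPM (read counts scaled for library size) with melittin and 3033 to 3059 CPM in controls. Of these markers CD68 had 1 count in all libraries. Of 12 markers of prostate epithelium, the tissue the title names for the tumour, KLK2, TMPRSS2, EPCAM and KRT18 had 0 counts in every library. The summed level of these 12 was 107.4 to 117.3 CPM with melittin and 77.1 to 82.1 CPM in controls. Of them 4 were tested. The part of these marker differences in the results below was not tested.

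The autophagy genes moved in both directions with melittin, and those with the largest changes were higher. By edgeR's quasi-likelihood test at an adjusted p of 0.05, 21 of the 40 tested genes rose and 10 fell, which is 77.5% called where 76.4% of all 12029 tested genes were called. By direction, 38.1% of all tested genes rose and 38.3% fell. The share of autophagy genes called was thus near that of the transcriptome. In 30 of the 40 the values of the groups did not overlap, where 77.4% of all tested genes showed this. The median log2 fold change was 0.15 over the 40 genes and −0.01 over all genes, while the median size of change without its sign was 0.23 against 0.47. Against a fold change of 1.5, 8 rose and 0 fell, where 14.6% and 14.4% of all tested genes did so and 29.1% passed in either direction. These 8 were the tested ATG8 genes MAP1LC3A, MAP1LC3B, GABARAPL1 and GABARAPL2 together with ATG16L2, ATG2A, ATG101 and WIPI1. In bulk RNA a change in the share of cells and a change in RNA per cell cannot be told apart.

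The small changes depended on how libraries were scaled. The values here use TMM factors, and when library totals alone were used the median over all genes was −0.24 in place of −0.01. Under that scaling 13 of the 40 genes were called higher and 17 lower, where 26.3% of all tested genes were higher and 51.9% lower. Against 1.5-fold 6 were higher and 3 lower (PIK3C3, ATG2B and ATG10), where 9.39% of all tested genes were higher and 23.0% lower. The rises of ATG13, WIPI2, ATG5, ATG7, ATG12 and CALCOCO2 turned to values from −0.01 to −0.09, of which ATG13 passed as lower (adjusted p = 0.0341), and those of PIK3R4 and UVRAG no longer passed. Over all 17 alternatives to the processing, 13 rises and 5 falls kept their direction and their side of the threshold. The rises were those of ULK1, ATG101, ATG2A, WIPI1, WDR45B, ATG4B, ATG16L2, MAP1LC3A, MAP1LC3B, GABARAPL1, GABARAPL2, NBR1 and BNIP3L. The falls were those of RB1CC1, PIK3C3, ATG2B, ATG10 and OPTN.

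**Figure D1:**
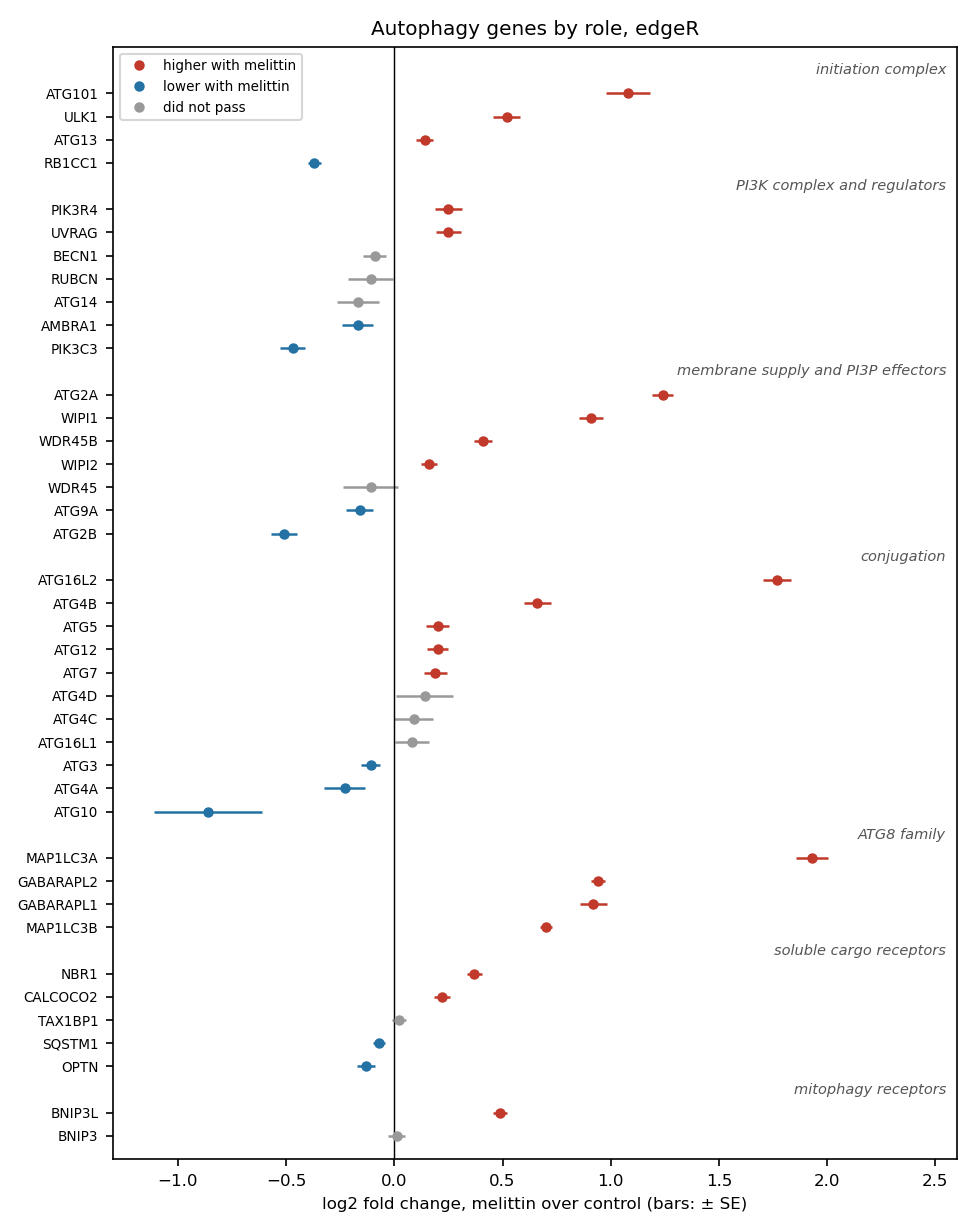
Log2 fold change, melittin over control, of the 40 tested autophagy genes, grouped by role, with bars for ± SE. The 4 ATG8 genes among them all lie right of 0, between 0.70 and 1.93, while the other groups of 4 or more genes hold values on both sides.

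The 4 tested ATG8 genes among the 42 rose together. MAP1LC3C, an ATG8 gene outside the 42, fell at low counts (log2 fold change −1.92, edgeR adjusted p = 0.00204). ATG8 genes encode the ubiquitin-like proteins that are attached to the lipid of the growing membrane and hold the cargo receptors. MAP1LC3A (chromosome 20, 34546854 to 34560345, plus strand, GRCh38) had 41.95, 44.64 and 41.96 CPM in the melittin libraries, against 12.1, 11.4 and 10.17 CPM in the controls. Every melittin library was thus far above every control, and the log2 fold change was 1.93 (SE 0.0756, adjusted p = 1.06e-18). With the trend of fold change on gene length removed it was 1.48, and MAP1LC3A is short, with a length of 1152 bases in the table.

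MAP1LC3B, the form of LC3 most often used to follow autophagy (chromosome 16, 87383953 to 87404779, plus strand), had 367.8, 357.6 and 358.0 CPM with melittin, against 224.4, 230.0 and 214.1 CPM in controls. The groups lay well apart at a log2 change of 0.70 (SE 0.0286, adjusted p = 3.03e-18), which passed the test against 1.5-fold but no longer did so with libraries scaled by their totals (0.46). GABARAPL2 (chromosome 16, 75566375 to 75577881) had 181.6, 181.0 and 184.9 CPM with melittin, against 96.1, 94.8 and 94.9 CPM in controls, and replicates differed by little. Its log2 fold change was 0.94 (SE 0.0318, adjusted p = 4.07e-20). GABARAPL1 (chromosome 12, 10212458 to 10223128) had 46.6, 49.6 and 52.4 CPM with melittin, against 25.2, 27.4 and 25.8 CPM in controls, and its log2 fold change was 0.92 (SE 0.0613, adjusted p = 1.56e-13). The groups did not overlap in either GABARAP relative.

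GABARAP itself, which is abundant in most tissues, had 1, 1 and 0 counts with melittin and 1, 1 and 2 counts in controls. Its gene (chromosome 17, 7240008 to 7242449, minus strand) overlaps a further entry of the table on the same strand, ENSG00000262526, which had 0 counts in all libraries. ATG9A and WDR45 also overlap an entry on the same strand, and they had 3335 and 726 counts over all libraries. Whether the overlap set the low counts of GABARAP was not tested, and at this depth no change of GABARAP could be detected.

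Set per length, the ATG8 family held several of the most abundant transcripts of the machinery. On a scale of CPM per kilobase, MAP1LC3B was at 71.7 ± 1.15 with melittin and 44.2 ± 1.6 in controls (SD, n = 3 each), the highest of the 42 genes in both groups. GABARAPL2 was next with melittin at 60.6 ± 0.703 and was at 31.6 ± 0.233 in controls. MAP1LC3A ranked 4 of 42 with melittin, at 37.2 ± 1.35 CPM per kilobase, and 16 of 42 in controls, at 9.74 ± 0.85.

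The makeup of the family shifted toward MAP1LC3A. Of the summed FPKM of the 5 ATG8 genes (reads per kilobase of gene scaled to the library total, as deposited), MAP1LC3A took 20.08, 21.27 and 20.03% with melittin, against 11.27, 10.54 and 9.89% in controls. MAP1LC3B took 40.3, 39.0 and 39.1% with melittin, against 47.8, 48.7 and 47.6% in controls. Neither share overlapped between the groups. An exact two-sided permutation test gave p = 0.1 for each, the smallest that 3 against 3 libraries allow. The share of GABARAPL2 averaged 33.4 ± 0.39% with melittin and 34.4 ± 0.891% in controls (exact permutation p = 0.2, n = 3 each). GABARAPL1 averaged 6.73 ± 0.382% with melittin and 7.0 ± 0.293% in controls (exact permutation p = 0.4). These shares are taken within a library and do not depend on its scaling, but they do depend on gene length. In summed counts, not divided by length, the gain of MAP1LC3A was 3.58 percentage points in place of 9.89. The summed FPKM was 167.6 to 167.9 with melittin and 96.6 to 101.7 in controls.

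**Figure D2:**
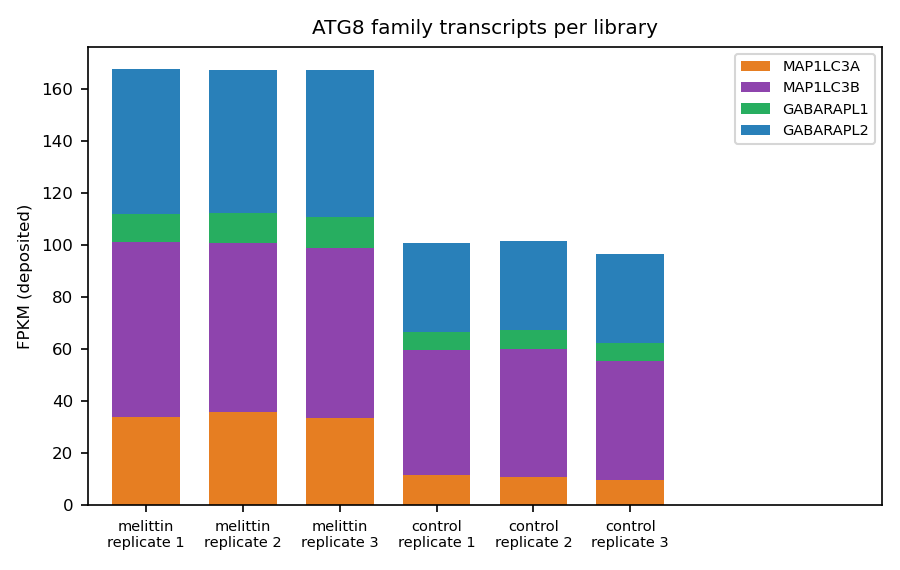
Deposited FPKM of 4 ATG8 genes stacked for each of the 3 melittin and 3 control libraries, with GABARAP left out since it had at most 2 counts in a library. The melittin stacks reach about 168 and the control stacks 96.6 to 101.7, and of the layers only MAP1LC3A gains in mean share.

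Counts by role and by list stand beside 38.1% of all tested genes that rose and 38.3% that fell. In the initiation complex, 3 of 4 tested genes rose and 1 fell (median log2 fold change 0.33), the kinase rising and the scaffold falling. ULK1, the kinase that starts autophagy under the control of mTOR and AMPK, had 41.6, 41.5 and 39.5 CPM with melittin, against 26.3, 29.2 and 30.0 CPM in controls. Its log2 fold change was 0.52 (SE 0.0627, adjusted p = 2.33e-08) with no overlap between the groups. ATG101, a small protein that stabilises ATG13, had 19.3, 15.5 and 17.6 CPM with melittin, against 8.32, 7.86 and 8.55 CPM in controls. All melittin libraries were above all controls, at a log2 change of 1.08 (SE 0.103, adjusted p = 3.12e-10).

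RB1CC1, the large scaffold also called FIP200, had 140.3, 146.1 and 144.3 CPM with melittin, against 188.1, 186.0 and 182.5 CPM in controls. It was lower in every melittin library, with a log2 change of −0.37 (SE 0.0307, adjusted p = 1.72e-11), and it was the most abundant of the complex per length in both groups. ATG13, the adaptor of the kinase, averaged 96.6 ± 3.72 CPM with melittin and 87.8 ± 1.65 CPM in controls, a log2 fold change of 0.14 that turned to −0.09 with libraries scaled by their totals.

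ULK2, the close relative of ULK1, had 0, 6 and 2 counts with melittin and 12, 9 and 12 counts in controls, too few to pass the filter on low counts. The sums of 8 counts with melittin (exact Poisson 95% interval 3.45 to 15.8) and 33 counts in controls (22.7 to 46.3) cover counting error only. Without that filter edgeR gave ULK2 an adjusted p of 0.0183, and DESeq2 gave 0.062. Read together with ULK1, nearly all counts of this kinase pair came from ULK1, with 1975 over the melittin libraries and 1674 over the controls.

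The class III PI3-kinase complex marks the site of formation with the lipid PI3P, and of its 7 genes 2 rose, 2 fell and 3 did not pass (median −0.11). PIK3C3, the catalytic subunit also called VPS34, had 36.5, 32.7 and 35.5 CPM with melittin, against 48.4, 48.7 and 47.2 CPM in controls. The melittin libraries were all lower, at a log2 change of −0.47 (SE 0.0565, adjusted p = 2.74e-08). With the length trend removed the PIK3C3 value was −0.24, and with libraries scaled by their totals it was −0.70. PIK3R4, its regulatory subunit, averaged 32.2 ± 0.486 CPM with melittin and 27.01 ± 1.13 CPM in controls, a log2 fold change of 0.25 that was 0.02 with libraries scaled by their totals (edgeR adjusted p = 0.785). The catalytic and the regulatory subunit thus moved in opposite directions in the TMM-scaled comparison.

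BECN1, the beclin 1 subunit, had 43.6, 45.5 and 47.7 CPM with melittin, against 48.7, 49.7 and 46.9 CPM in controls. The groups overlapped, and the log2 fold change of −0.09 (approximate 95% interval −0.19 to 0.02) did not pass (adjusted p = 0.13), although it was −0.32 and passed with libraries scaled by their totals. BECN1 overlaps PSME3 on the opposite strand, and this gene fell to 124.5 ± 5.01 CPM with melittin, against 181.2 ± 2.32 CPM in controls. ATG14, which directs the complex to the autophagosome, stood at −0.17 on the log2 scale and did not pass (adjusted p = 0.118). RUBCN, an inhibitor of the complex that is also needed for LC3-associated phagocytosis, had −0.11 (adjusted p = 0.32). Both passed as lower with libraries scaled by their totals, at −0.40 and −0.35.

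UVRAG, a subunit of the form of the complex that acts on endosomes, rose by 0.25 on the log2 scale (edgeR, adjusted p = 0.000527), a value of 0.02 with libraries scaled by their totals (adjusted p = 0.821). AMBRA1, a partner of beclin 1, fell by 0.17 on the log2 scale, although the groups overlapped (adjusted p = 0.0363). That call ended without melittin replicate 1 (−0.12, adjusted p = 0.164) or replicate 3 (−0.15, adjusted p = 0.0956), and without control replicate 2 (−0.15, adjusted p = 0.118) or replicate 3 (−0.18, adjusted p = 0.0508). It also ended with DESeq2 (adjusted p = 0.107) and once the length trend was removed (−0.09, adjusted p = 0.252).

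Among the proteins that supply membrane and read PI3P, 4 of 7 genes rose and 2 fell (median 0.16). ATG2A, which carries lipids from the endoplasmic reticulum into the growing membrane, had 89.4, 89.1 and 85.3 CPM with melittin, against 35.0, 37.8 and 38.9 CPM in controls. Every melittin value was more than 2 times any control value, and the log2 fold change was 1.24 (SE 0.0488, adjusted p = 1.12e-18). ATG2B, its paralog with the same activity, had 28.5, 27.6 and 29.3 CPM with melittin, against 41.1, 40.5 and 39.8 CPM in controls. Here all melittin libraries were lower (log2 fold change −0.51, SE 0.0593, adjusted p = 1.25e-08). Over the 17 alternatives to the processing the ATG2B value ran from −0.74 to −0.30.

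WIPI1, a PI3P-binding protein of the WIPI family, had 57.8, 60 and 64.9 CPM with melittin, against 33.6, 31.6 and 32.2 CPM in controls, and the log2 change was 0.91 (SE 0.056, adjusted p = 2.95e-14). The groups were well apart, and with libraries scaled by their totals the value was 0.68 and missed 1.5-fold (adjusted p = 0.0522). WDR45B, another member of the family, had 93.7, 95.1 and 98.7 CPM with melittin, against 71.0, 71.2 and 73.6 CPM in controls, without overlap. Its log2 fold change was 0.41 (SE 0.04, adjusted p = 3.85e-10). FOXK2, which overlaps WDR45B on the opposite strand, also rose, by 0.57 on the log2 scale.

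WIPI2, which brings the ATG16L1 complex to the membrane, rose by 0.16 on the log2 scale (adjusted p = 0.00015), a value of −0.07 with libraries scaled by their totals. WDR45 had −0.11 (adjusted p = 0.41). ATG9A, the transmembrane protein of the vesicles that seed the membrane, fell by 0.16 on the log2 scale (adjusted p = 0.0219). That call ended without melittin replicate 2 (−0.16, adjusted p = 0.0513) or replicate 3 (−0.13, adjusted p = 0.0881), without control replicate 3 (−0.15, adjusted p = 0.0654) and with DESeq2 (−0.17, adjusted p = 0.0817).

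The conjugation system acts like a ubiquitin cascade, and of its 11 genes 5 rose and 3 fell (median 0.14), most by small amounts. ATG16L2 and ATG4B were the ones with larger rises. ATG16L2, a paralog of the ATG16L1 scaffold (chromosome 11, 72814406 to 72843674, plus strand), had 58.1, 54.7 and 58.2 CPM with melittin, against 15.99, 18.04 and 15.83 CPM in controls. All melittin libraries were more than 3 times any control, and the log2 fold change was 1.77 (SE 0.0649, adjusted p = 2.29e-19). FCHSD2, which overlaps ATG16L2 on the opposite strand, moved the other way (−0.28). ATG16L1 itself averaged 33.0 ± 3.7 CPM with melittin and 31.3 ± 3.6 CPM in controls (SD, n = 3 each) and did not pass (log2 fold change 0.08, approximate 95% interval −0.08 to 0.23, adjusted p = 0.373).

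ATG4B, the main protease that trims ATG8 proteins before conjugation and frees them afterwards, had 43.2, 41.7 and 46.9 CPM with melittin, against 28.4, 26.6 and 28.1 CPM in controls. The groups did not overlap, at a log2 change of 0.66 (SE 0.062, adjusted p = 1.9e-10). The other ATG4 proteases did not follow it. ATG4A fell by 0.23 on the log2 scale, although the groups overlapped (adjusted p = 0.0301), while ATG4C and ATG4D had 0.09 and 0.14 and did not pass (adjusted p = 0.355 and 0.332). The ATG4A call ended without melittin replicate 1 (−0.20, adjusted p = 0.0665) or 2 (−0.20, adjusted p = 0.101), without control replicate 1 (−0.16, adjusted p = 0.161) or 3 (−0.21, adjusted p = 0.0729), and with DESeq2 (adjusted p = 0.0972).

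The core enzymes moved little. ATG5, the partner of ATG12, had 63.5, 69.0 and 59.3 CPM with melittin, against 57.7, 55.3 and 54.0 CPM in controls, with no overlap but a narrow gap. Its log2 fold change was 0.20 (adjusted p = 0.00105) and was −0.03 with libraries scaled by their totals. ATG12 and ATG7, the E1-like activating enzyme, had 0.20 and 0.19, and −0.03 and −0.04 under that scaling. ATG3, the E2-like enzyme for ATG8 proteins, fell by 0.11 on the log2 scale (adjusted p = 0.0274). That call ended without melittin replicate 1 (adjusted p = 0.053) or 2 (adjusted p = 0.0706), without control replicate 1 (adjusted p = 0.0862) or 2 (adjusted p = 0.0799), with DESeq2 (adjusted p = 0.0971) and once the length trend was removed (−0.08, adjusted p = 0.125).

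ATG10, the E2-like enzyme that joins ATG12 to ATG5, was low, with 28, 51 and 14 counts in melittin libraries, against 75, 68 and 62 in controls. These counts gave 1.82, 2.84 and 0.938 CPM with melittin, against 3.69, 3.2 and 3.58 CPM in controls, so the melittin values were lower but spread widely. The log2 fold change was −0.86 (SE 0.25, adjusted p = 0.00296), and without melittin replicate 2 it was −1.33 and passed 1.5-fold (adjusted p = 0.00698). RPS23, a ribosomal protein gene that overlaps ATG10 on the opposite strand, fell to 21.4 CPM with melittin, against 36.5 CPM in controls (log2 fold change −0.78). How reads of this pair were divided was not tested.

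**Figure D3:**
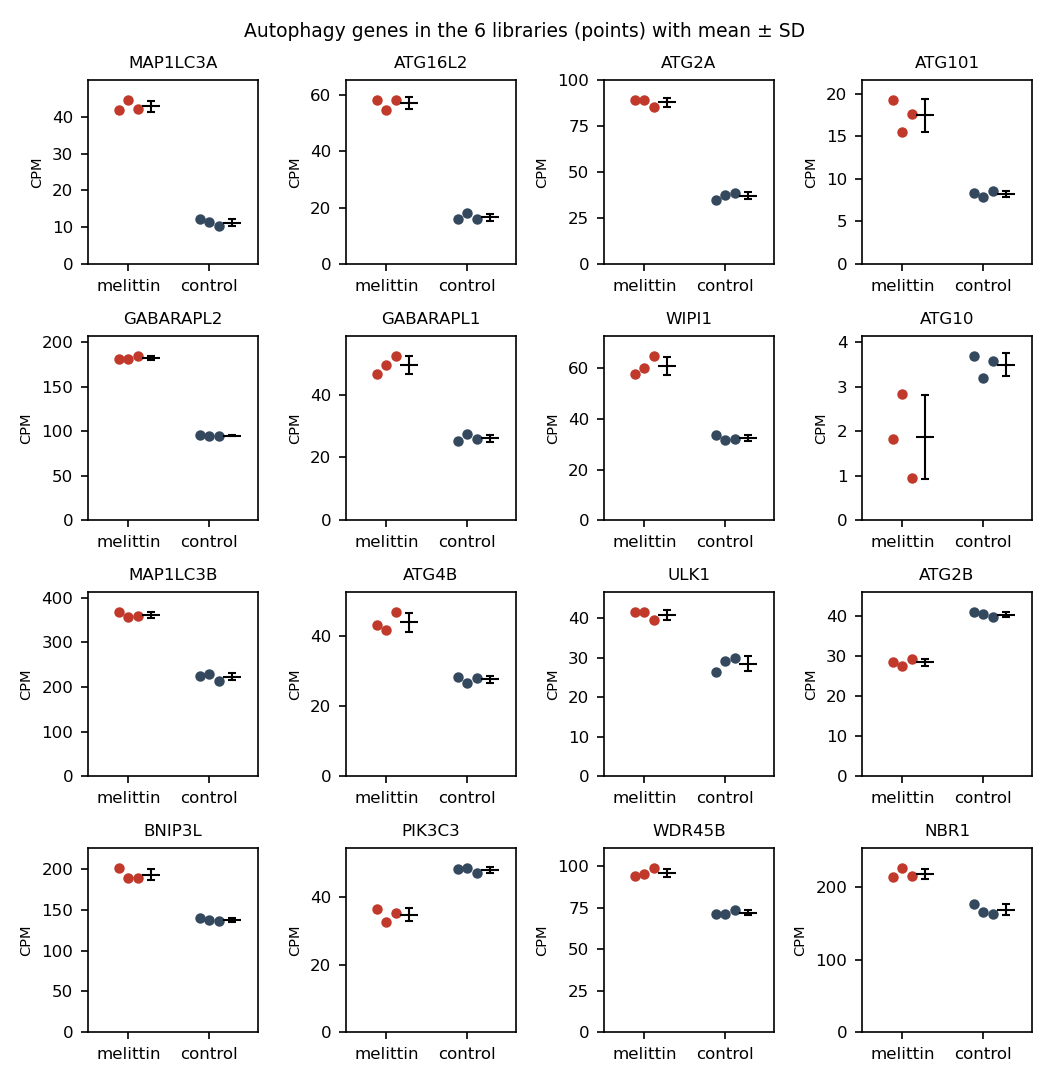
CPM in each library of the 16 autophagy genes with the largest called changes of at least 1 CPM on average, melittin left and control right, with the mean and SD of 3 libraries beside the points. In 13 of the 16 panels the melittin points lie above the control points, and in ATG10, ATG2B and PIK3C3 they lie below.

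Of the 5 soluble cargo receptors 2 rose and 2 fell (median 0.02). SQSTM1, the receptor p62 that gathers ubiquitin-tagged cargo and is itself degraded by autophagy (chromosome 5, 179806398 to 179838078, plus strand), had 276.7, 275.7 and 286.8 CPM with melittin, against 293.6, 298.3 and 289.7 CPM in controls. Per length it stood at 37.1 CPM per kilobase with melittin and 39.0 in controls, among the 5 highest of the 42 genes in both groups. The melittin libraries were slightly lower, with a gap of a few CPM, and the log2 fold change was −0.07 (SE 0.0269, adjusted p = 0.0178). The call ended without melittin replicate 2 (−0.06, adjusted p = 0.069), without control replicate 2 (−0.06, adjusted p = 0.0733) and once the length trend was removed (adjusted p = 0.976). Both genes that overlap SQSTM1 on the opposite strand rose, MGAT4B by 0.50 and MRNIP by 0.78 on the log2 scale.

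NBR1, a receptor that works with p62, had 214.3, 226.5 and 215.4 CPM with melittin, against 177.5, 165.7 and 163.9 CPM in controls. It was higher in all melittin libraries (log2 fold change 0.37, SE 0.0331, adjusted p = 7.1e-11). CALCOCO2, the receptor NDP52 for bacteria and mitochondria, averaged 132.7 ± 2.73 CPM with melittin and 113.6 ± 4.13 CPM in controls, a rise of 0.22 that turned to −0.01 with libraries scaled by their totals. OPTN, optineurin, fell by 0.13 on the log2 scale (adjusted p = 0.00663). TAX1BP1 averaged 172.9 ± 6.77 CPM with melittin and 170.9 ± 4.86 CPM in controls and did not pass (log2 fold change 0.02, approximate 95% interval −0.05 to 0.08). TAX1BP1 passed as lower with libraries scaled by their totals (−0.21) and as higher with the length trend removed (0.15).

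Of the receptors on the outer mitochondrial membrane, BNIP3L rose and BNIP3 did not pass. BNIP3L, also called NIX, which removes mitochondria in hypoxia and in red cell maturation, had 200.8, 188.2 and 189.3 CPM with melittin, against 139.6, 137.3 and 135.6 CPM in controls. The groups were far apart at a log2 change of 0.49 (SE 0.0322, adjusted p = 1.35e-13). BNIP3, its relative and a common target of hypoxia signalling, had 77.8, 75.1 and 78.2 CPM with melittin, against 77.1, 74.8 and 78.0 CPM in controls. BNIP3 was singled out after its values were seen. The groups lie on top of each other, with a log2 fold change of 0.01 (approximate 95% interval −0.07 to 0.09, adjusted p = 0.879), and −0.22 with libraries scaled by their totals (adjusted p = 1.96e-05).

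Several paralogs that share a step changed unequally, which ratios within a library show free of library scaling. Such ratios still hold the trend of fold change on gene length where paralogs differ in length. MAP1LC3A (1152 bases) and MAP1LC3B (5037 bases) are such a pair. Of 9 paralog pairs, the ratio of FPKM did not overlap between the groups in 7, each with an exact two-sided permutation p = 0.1, the smallest possible, and 0.129 after Benjamini-Hochberg adjustment over the 9 pairs. Among all tested single genes 77.4% did not overlap, and no such share was computed for other gene pairs. Whether a ratio rose or fell follows from which paralog was placed on top. The ratio of ATG2A to ATG2B was 5.71, 5.87 and 5.3 with melittin, against 1.55, 1.7 and 1.78 in controls. ATG16L2 to ATG16L1 was 1.28, 1.05 and 1.39 with melittin, against 0.321, 0.428 and 0.393 in controls, so the more abundant paralog per length changed from one to the other. The same crossing of 1 was seen for WIPI1 to WIPI2, at 1.39 ± 0.107 with melittin and 0.83 ± 0.0163 in controls (SD, n = 3 each). ATG4B to ATG4A also crossed it, at 1.3 ± 0.025 with melittin and 0.703 ± 0.0496 in controls. The ratio of MAP1LC3A to MAP1LC3B was 0.519 ± 0.0243 with melittin and 0.22 ± 0.0144 in controls.

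WDR45B to WDR45 was 19.5 ± 0.244 with melittin and 13.6 ± 0.384 in controls, and BNIP3L to BNIP3 was 2.44 ± 0.0763 with melittin and 1.75 ± 0.0488 in controls. In the remaining pairs the libraries of the groups intermingled. GABARAPL1 to GABARAPL2 was 0.202 ± 0.01 with melittin and 0.204 ± 0.0101 in controls, and ATG4D to ATG4C was 1.0 ± 0.243 with melittin and 0.948 ± 0.138 in controls (exact permutation p = 0.8 for each).

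**Figure D4:**
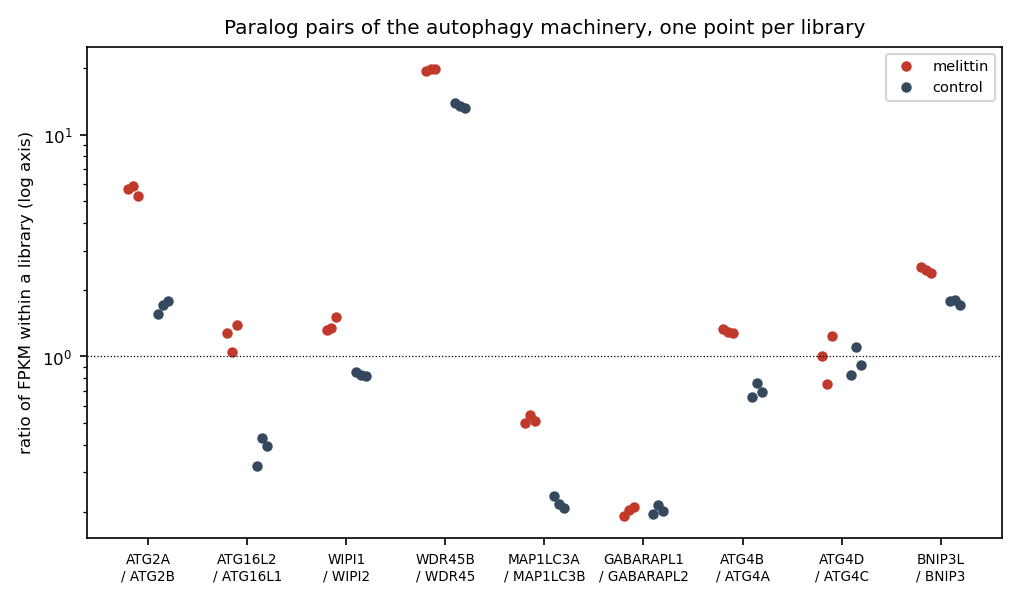
Ratio of deposited FPKM within each library for 9 paralog pairs on a log axis, melittin left and control right in each pair, 1 point per library. In 7 pairs the melittin points lie above the control points, a direction set by which paralog was placed on top. In GABARAPL1 to GABARAPL2 and ATG4D to ATG4C they overlap.

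Further genes of the pathway, in 7 lists outside the 42, moved in both directions as well. Of 86 tested genes in these lists 37 rose and 35 fell, with a median log2 fold change of 0.03. That is 83.7% called, where 76.4% of all tested genes were called. With libraries scaled by their totals 22 were higher and 43 lower, where 26.3% of all tested genes were higher and 51.9% lower. In the list of autophagosome and lysosome fusion 8 of 17 tested genes rose and 7 fell (median 0.14). YKT6, a SNARE protein of this fusion, averaged 121.1 ± 6.27 CPM with melittin and 83.0 ± 2.57 CPM in controls, and PLEKHM1, an adaptor between ATG8 proteins and the tethering complex HOPS, 61.1 ± 0.577 CPM with melittin and 38.6 ± 0.892 CPM in controls. STX7, an endosomal SNARE, fell to 38.1 ± 1.64 CPM with melittin, against 76.2 ± 2.11 CPM in controls. VPS41, a HOPS subunit, fell by 0.64 on the log2 scale.

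Among receptors for whole organelles 8 of 16 tested genes rose and 5 fell (median 0.11). FKBP8, a receptor on mitochondria, averaged 253.9 ± 9.24 CPM with melittin and 147.6 ± 0.794 CPM in controls, and SEC62, a receptor for endoplasmic reticulum, 452.0 ± 8.72 CPM with melittin and 284.2 ± 5.62 CPM in controls. Falls of 0.89 and 0.88 on the log2 scale were measured for ATL3 and WDFY3. In the PINK1 and TBK1 list 4 of 9 rose and 4 fell (median −0.18). PINK1, the kinase that flags damaged mitochondria, averaged 23.8 ± 2.1 CPM with melittin and 13.4 ± 1.85 CPM in controls. TOMM7, which holds PINK1 at the mitochondrial import pore, rose by 1.09 on the log2 scale, while MFN2 and TBK1, the kinase that activates OPTN, fell by 0.27 and 0.18 on that scale, the TBK1 value turning to 0.04 with the length trend removed.

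Scaffold and lipid factors rose in 7 and fell in 8 of 17 tested genes (median −0.07). SH3GLB1, a membrane-bending partner of UVRAG also called BIF-1, averaged 668.1 ± 8.7 CPM with melittin and 358.3 ± 3.82 CPM in controls. NRBF2, a subunit of the PI3-kinase complex, averaged 105.1 ± 7.39 CPM with melittin and 63.3 ± 3.06 CPM in controls. DAPK1, a kinase that acts on beclin 1, fell to 15.8 ± 0.458 CPM with melittin, against 57.3 ± 0.284 CPM in controls, and EI24 fell by 0.87 on the log2 scale.

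Of 15 transcription factors linked to autophagy genes 6 rose and 5 fell (median 0.03). ATF4, the factor of the integrated stress response, averaged 538.1 ± 14.2 CPM with melittin and 345.6 ± 1.45 CPM in controls, and its target DDIT3 (CHOP) 36.3 ± 2.35 CPM with melittin and 9.67 ± 0.366 CPM in controls. CEBPB and FOXO3 rose by 0.88 and 0.44 on the log2 scale. TFEB, the main regulator of lysosome and autophagy genes, chosen after its values were seen, averaged 19.0 ± 2.2 CPM with melittin and 18.5 ± 1.1 CPM in controls (adjusted p = 0.746). Only its transcript was measured, and TFEB is known to be controlled by its location in the cell.

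In the AMPK list 3 of 8 tested genes rose and 3 fell (median −0.01). PRKAA1, the catalytic subunit that activates ULK1, fell to 205.3 ± 5.32 CPM with melittin, against 377.1 ± 7.97 CPM in controls, and CAMKK2, a kinase upstream of it, fell by 0.93 on the log2 scale. STK11 (LKB1), another upstream kinase, rose by 0.71, and its partner CAB39 by 0.28, which library totals alone reduced to a value that did not pass (0.05, adjusted p = 0.098). Of the other ATG8 and ATG paralogs 4 were tested, of which 1 rose and 3 fell (median −0.79). MAP1LC3B2, nearly identical to MAP1LC3B, had 116 counts over the melittin libraries and 87 over the controls, and how reads divide between these near-copies is uncertain. Its rise (0.71, adjusted p = 0.0144) was the only one in that list. The call ended with library totals (0.48, adjusted p = 0.0903), once the length trend was removed (0.41, adjusted p = 0.143), with DESeq2 (0.72, adjusted p = 0.0579) and on log2(FPKM + 0.1) without filter (0.47, adjusted p = 0.0675). It also ended without melittin replicate 3 (0.59, adjusted p = 0.0679) or control replicate 3 (0.53, adjusted p = 0.08). MAP1LC3C had 11 counts over the melittin libraries and 52 over the controls. It fell by 1.92 on the log2 scale (edgeR adjusted p = 0.00204) and passed the test against 1.5-fold (adjusted p = 0.0139). ULK3 and ULK4 were lower by log2 values of −0.62 and −0.97, and the ULK4 call ended without melittin replicate 1 (−0.67, adjusted p = 0.0532).

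Terms for autophagy in the Gene Ontology columns of the deposited table were attached to 39 of the 42 genes, all but TAX1BP1, BNIP3 and BNIP3L. They were also attached to 210 other genes, of which 185 were tested. Of these 77 rose and 67 fell, with a median log2 fold change of 0.03, which is 77.8% called where 76.4% of all tested genes were. In each direction 22 passed 1.5-fold, where 14.6% of all tested genes passed as higher and 14.4% as lower.

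The autophagy genes lie on 17 chromosomes and are long, with a median length of 6078.5 bases in the table against 4411.5 over all genes. Among all tested genes shorter ones had the higher fold changes, with a median of 0.20 among the shortest 3008 genes and −0.18 among the longest 3007. Among those shortest genes 7 autophagy genes were tested, with a median of 0.91, and among the longest 9, with a median of 0.16. With the length trend removed 22 autophagy genes were called higher and 7 lower, where 38.4% of all tested genes were higher and 37.7% lower. Against 1.5-fold 9 passed as higher and 0 as lower, where 14.2% and 13.6% of all tested genes did so, and ATG4B was the added one. Of the 42 genes 18 overlap a gene on the opposite strand, judged by whole gene spans with introns included. Whether the exons of such pairs overlap was not tested, and the strand setting of the counting is not given. How far their reads were mixed is therefore not known.

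**Figure D5:**
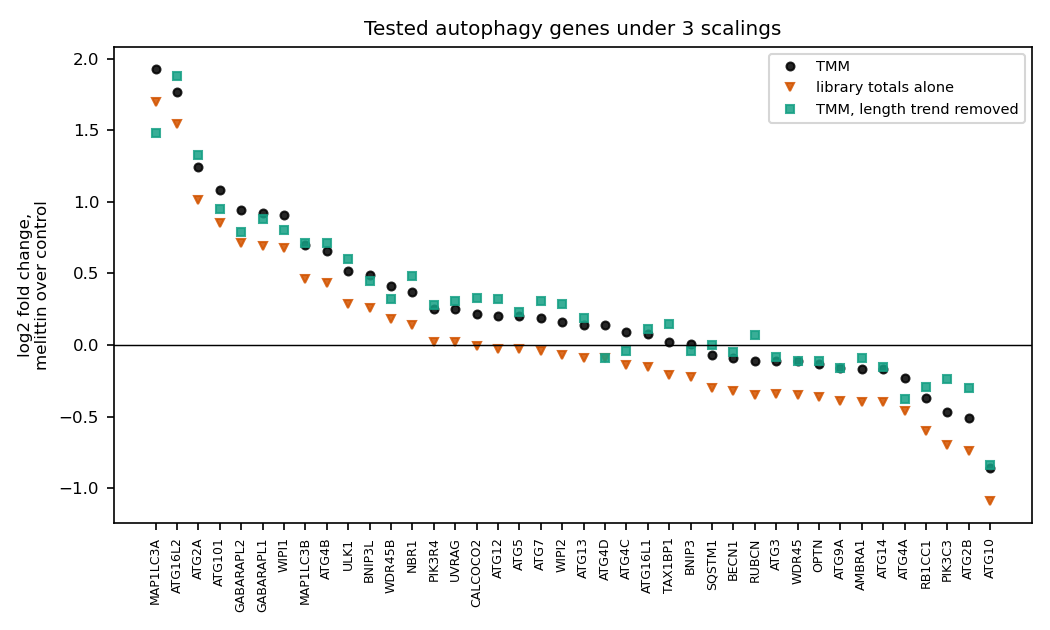
Log2 fold change, melittin over control, of the 40 tested autophagy genes, in order of the TMM-scaled value, beside the values from library totals alone and those freed of the length trend. Library totals shift every gene down by about the same amount, so genes near 0 change sign while the leading ones stay above 0.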

How the data were processed

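The authors deposited raw read counts per gene for 6 libraries and FPKM values, which equal the count divided by the table's gene length and the library total (largest relative deviation 2.2e-09 over values with at least 20 counts). Per the submitters' processing notes the build was GRCh38. Aligner, counting program, strand setting and annotation version: not given in the sources used here. Per the labels' protocols, a chloroform method gave total RNA, and a NEBNext Ultra kit from NEB the libraries.

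Counts were tested with edgeR 4.0.16 in R 4.3.3: filterByExpr (12029 of 20036 genes kept), TMM factors, glmQLFit and glmQLFTest, two-sided, Benjamini-Hochberg adjustment over all tested genes, threshold 0.05, and glmTreat against 1.5-fold. An SE is the size of the log2 fold change over the root of the F statistic, and an approximate 95% interval is 1.96 SE on either side. CPM are TMM-scaled, and ± is the SD over 3 libraries. One count was worth 0.051 to 0.0625 CPM before that scaling. Intervals cover counting error only where they are Poisson intervals.

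The genes, roles and lists were chosen with earlier results of these data known. Values per library are given for the 16 genes with the largest change among those past the threshold with at least 1 CPM, and for the most abundant gene (FPKM) of each of the 7 roles. Of each list, up to 4 genes past the threshold with the smallest adjusted p are named. Before averaging, libraries were compared: pairs of melittin libraries had a chi-square of 2.23 to 3.92 per degree of freedom, pairs of controls 1.73 to 1.76 and pairs across groups 165 to 197. Each library was counted as 1 replicate, but these values cannot tell whether the libraries of a group stem from separate cultures. On simulated data with 200 of 11921 tested genes changed, the test recovered 88.1% of 1.5-fold, 92.5% of 2-fold and 98.5% of 4-fold changes, with 4.12% of calls false, but far fewer genes were changed there than in the data. Alternatives were other scalings and filters, DESeq2 1.42.0, limma 3.58.1 (voom, and log2 of FPKM plus 0.1 or 1), each library left out, and the replicate number as a block. No sample column was left unused. The value of 1 marker gene is not reported here.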

Additional observations from a re-analysis of the deposited data

How the results depend on the processing

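Of the 40 tested autophagy genes, 18 kept direction and side of the threshold under all 17 alternatives. With libraries scaled by their totals alone, 13 autophagy genes were called higher and 17 lower (26.3% and 51.9% of all tested genes), with 6 and 3 past 1.5-fold (9.39% and 23.0%), and 22 genes of the pathway lists were called higher. The settings log2(FPKM + 0.1), log2(FPKM + 1) and log2(FPKM + 0.1) without filter share that scaling. In each, 13 autophagy genes were higher and 16 lower, and more of all tested genes were lower than higher as well. In these settings 22, 22 and 21 list genes were higher. DESeq2 called 6 autophagy genes lower, and the cause was not tested. Over all tested genes DESeq2 called nearly as many lower as higher. With library totals and with the 3 FPKM settings the sign turned for ATG13 (−0.09 in each), WIPI2 (−0.07, and −0.06 with a pseudocount of 1), ATG5 (−0.03), ATG7 (−0.04), ATG12 (−0.03), CALCOCO2 (−0.01), TAX1BP1 (−0.21, and −0.20 with a pseudocount of 1) and BNIP3 (−0.22, and −0.21 with a pseudocount of 1). It also turned for ATG16L1 (−0.15, and −0.13 with a pseudocount of 1), ATG4C (−0.14, and −0.12) and ATG4D (−0.09, and −0.07), which passed in no setting. These shifts follow from the scaling, since library totals lower every fold change by a like amount. Once the length trend was removed the sign turned for SQSTM1 (0.000956), TBK1 (0.04), RUBCN (0.07), ATG4C (−0.04), ATG4D (−0.09) and BNIP3 (−0.04). Without the low-count filter it turned for TAX1BP1 (−0.00139) and BNIP3 (−0.01).

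Leaving out 1 library at a time gave 21 genes called higher throughout and 7 to 9 lower, 8 past 1.5-fold as higher and 0 to 2 as lower, and 8857 to 9147 of all genes called. The 2 were ATG10 and ULK2, both without melittin replicate 2. The sign of values that did not pass turned without melittin replicate 1 for BNIP3 (−0.00346), without melittin replicate 2 for ATG16L1 (−0.02), without melittin replicate 3 for ATG4D (−0.04), TAX1BP1 (−0.00211) and BNIP3 (−0.0039), and without control replicate 2 for TAX1BP1 (−0.00202) and BNIP3 (−0.01). Over the libraries left out, the values reached 0.17 for ATG16L1, 0.27 for ATG4D, 0.05 for TAX1BP1 and 0.03 for BNIP3. The share of MAP1LC3B among ATG8 genes differed by −8.57 percentage points, by −8.99 to −8.25 with a library left out and by −5.89 in summed counts, where GABARAPL2 gave 1.89 in place of −1.01 and GABARAPL1 0.438 in place of −0.277. Same-numbered libraries did not deviate together (correlations −0.0461, 0.0178 and −0.0191), which cannot tell whether they were prepared together. With the replicate block 21 autophagy genes were called higher and 10 lower, 8 passed 1.5-fold as higher and 9050 of all genes were called. Depth limits ULK2 and GABARAP, with at most 12 and 2 counts in a library.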
